A study of Mus musculus with 8 samples.

Results

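The genes described here are Zp3, H1foo, Dppa3, Khdc3, Gdf9, Oas1e, Fbxw16, Fbxw18 and Fbxw27, 9 of the 10720 genes measured in single hematopoietic stem cells (HSCs) of the mouse. All of them are known for expression in the oocyte, and they were chosen because transcripts of them had been seen in these same cells, so their presence and their difference between the genotypes are descriptions. The study compared HSCs of Mx1-cre+ Med23 L/L mice, in which poly(I:C) injection induces Cre and deletes Med23 (KO), with HSCs of Mx1-cre- Med23 L/L littermates (WT). Both genotypes carried the floxed Med23 allele, and the methods give 4 injections of poly(I:C). Mx1-cre acts in many interferon-responsive cells and not in HSCs alone. Adult bone marrow of C57BL/6 background was sorted for Lin-Sca1+cKit+ (LSK) CD150+CD34-CD48- cells, and each cell was picked by hand. Messenger RNA was copied from the poly(A) tail with primers that tag every molecule with its cell of origin and a random label, the unique molecular identifier (UMI), which lets each molecule count a single time. The table gives the label and a running number for each cell but not which of the 4 libraries per label it came from. The cells of a label were therefore treated as 1 pool, and differences could not be checked against the spread between libraries. After a minimum of 2000 genes and 20000 UMIs per cell, 259 cells labelled WT and 234 labelled KO were kept, with medians of 59649 and 50281 UMIs. The numbers 1 to 282 occur under both labels, and no cell barcodes were available for comparison. The highest correlation between any pair of cells across genes was 0.60, and no pair was near-identical.

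Oocytes grow in the follicle over weeks and store messenger RNA and protein for the first divisions of the embryo. Transcription factors such as Figla and Nobox switch on a large set of genes in the growing oocyte. Zp3 encodes a glycoprotein of the zona pellucida, the coat of the egg. H1foo, named H1f8 in RefSeq, encodes the linker histone of the oocyte. Dppa3, also called Stella, protects maternal DNA methylation in the zygote and marks primordial germ cells. Khdc3, also called Filia, belongs to the subcortical maternal complex with Ooep, Nlrp5 and Tle6. Gdf9 encodes a growth factor that the oocyte secretes to the surrounding granulosa cells. Oas1e belongs to a family of 2'-5' oligoadenylate synthetases, and Fbxw16, Fbxw18 and Fbxw27 belong to a family of F-box proteins with WD40 repeats.

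To show the sequences in front of genes that were found together, the 250 bases before the start were taken from RefSeq (GRCm38.p6) for the 4 members with an entry, Zp3, Khdc3, Fbxw16 and Fbxw18. No entry was used for H1foo, Dppa3, Gdf9, Oas1e and Fbxw27. Capitals mark E-boxes, CANNTG, a pattern that matches at the same place on both strands. E-boxes are the class of site bound by basic helix-loop-helix factors such as Figla. The Zp3 window is chr5:135979855-135980104 on the plus strand, and that of Khdc3 is chr9:73102148-73102397 on the plus strand. The Fbxw16 window is chr9:109449141-109449390 and the Fbxw18 window is chr9:109702701-109702950, both on the minus strand.
Zp3: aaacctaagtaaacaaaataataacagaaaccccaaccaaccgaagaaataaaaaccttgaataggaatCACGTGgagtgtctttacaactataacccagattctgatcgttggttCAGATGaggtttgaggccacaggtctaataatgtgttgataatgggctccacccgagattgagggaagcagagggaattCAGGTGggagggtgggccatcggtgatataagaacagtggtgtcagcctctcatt
Khdc3: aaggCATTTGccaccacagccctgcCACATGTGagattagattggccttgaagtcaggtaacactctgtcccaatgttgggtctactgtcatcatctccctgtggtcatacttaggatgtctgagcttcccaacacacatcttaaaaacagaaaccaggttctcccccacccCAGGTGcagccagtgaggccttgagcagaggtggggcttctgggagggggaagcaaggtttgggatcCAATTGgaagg
Fbxw16: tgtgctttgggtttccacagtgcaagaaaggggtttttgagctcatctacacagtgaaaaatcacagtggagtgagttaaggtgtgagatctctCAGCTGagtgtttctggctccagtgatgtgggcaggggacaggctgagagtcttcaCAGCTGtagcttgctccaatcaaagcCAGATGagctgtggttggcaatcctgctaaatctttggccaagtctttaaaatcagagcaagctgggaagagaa
Fbxw18: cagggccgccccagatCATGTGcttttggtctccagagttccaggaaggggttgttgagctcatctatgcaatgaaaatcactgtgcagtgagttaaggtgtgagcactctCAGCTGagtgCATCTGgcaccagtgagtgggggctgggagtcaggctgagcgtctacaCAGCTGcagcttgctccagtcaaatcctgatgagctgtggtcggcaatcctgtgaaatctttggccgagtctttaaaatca
The Zp3 window held 3 E-boxes, 181, 134 and 55 bases before the start. Khdc3 held 5, of which those at 225 and 223 bases overlap, Fbxw16 held 3 and Fbxw18 held 4. An E-box was present in 66.2% of the 32851 windows of this length, with a median of 1, and 12.2% of windows held at least as many as that of Zp3. TAATTG, a Nobox-type site, was found on neither strand in these 4 windows and was found in 7.17% of all windows. These matches are letters in a window and not sites shown to be bound. The windows of Fbxw16 and Fbxw18 were identical at 200 of 270 aligned columns (74.1%), whereas the other pairs were 44.8% to 51.6% identical.

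The symbols of several members could take reads of close relatives, which bears on what each count means. The transcripts of Fbxw16, Fbxw18 and Fbxw27 were 79.4% to 83.3% identical to each other. In the last 500 bases, where a poly(A)-primed method reads, 11.1% of the 50-base windows of Fbxw16 also occurred in Fbxw23. For Dppa3 10.6% occurred in 3 other genes, which include the pseudogene Dppa3-ps, and for Oas1e 4.21% occurred in Oas1c and Oas1h. Zp3, H1foo, Khdc3, Gdf9, Fbxw18 and Fbxw27 shared none. The Fbxw genes form a cluster of 15 on chromosome 9, 13 of which were in the table. How the authors treated reads with several matches is not given in the sources used here, so the Dppa3, Oas1e and Fbxw16 counts are uncertain to that extent.

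The targeted gene Med23 itself had 122 UMIs over the WT cells and 117 over the KO cells, which is 5.68 and 7.23 counts per 1000000 UMIs (CPM). Its log2 ratio of KO over WT was 0.35 (-0.03 to 0.73). The pooled UMIs of the targeted gene were thus not lower in KO, but cell number 126 alone held 28 of the 117 KO UMIs. The largest WT count was 14, in cell number 211. Fewer KO cells held Med23, 27 (11.5%) against 47 WT cells (18.1%). With each cell thinned at random to equal depth, the shares were 6.41% (3.63 to 10.4) in KO and 8.49% (5.40 to 12.6) in WT. These intervals overlapped. These counts cannot check the labels or the deletion. Molecules were copied from the poly(A) tail, and the segment of Med23 that Cre removes is not given in the sources used here. The paper reports that Med23 was efficiently lost from blood-forming tissue after poly(I:C). Which cells had lost Med23 was not tested, and every direction below is that of the KO pool as labelled. Intervals here and below are exact 95% intervals that cover counting error only.

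Transcripts of the members were abundant among WT cells and sparse among KO cells. Together the 9 genes had 36973 UMIs in WT cells and 525 in KO cells, or 1722 CPM (1704 to 1739) and 32.4 CPM (29.7 to 35.3). WT was 53.1-fold higher (48.7 to 57.9), a log2 ratio of KO over WT of -5.73. All 9 members were at least 4-fold lower in KO, as were 3.40% of the 10720 genes, whose median log2 ratio was 0.02. The members were chosen on this difference, so nothing is read from that count.

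Among the genes of the egg coat and chromatin, Zp3 had 8457 UMIs in WT and 116 in KO, which is 394 CPM (385 to 402) and 7.17 CPM (5.92 to 8.60). H1foo had 9411 and 184 UMIs, or 438 CPM and 11.4 CPM. Dppa3 had 7232 and 160, or 337 CPM and 9.89 CPM. These 3 genes made up 87.6% of the member UMIs in KO, and the WT to KO fold was smallest for them, 54.9 (45.7 to 66.6) for Zp3, 38.5 (33.3 to 44.8) for H1foo and 34.1 (29.1 to 40.1) for Dppa3.

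Khdc3, of the subcortical maternal complex, had 3925 UMIs in WT and 19 in KO, a fold of 156 (99.5 to 259). The secreted factor Gdf9 had 3551 and 34 UMIs and a fold of 78.7 (56.2 to 114). Both intervals lay above that of Dppa3, the least unequal member, and overlapped each other. Gdf9 reached 716 UMIs in a single WT cell, number 269, and at most 10 in a KO cell.

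The remaining members were nearly absent from KO cells. Oas1e had 1155 UMIs in WT and 4 in KO. Fbxw18 had 1532 and 3, Fbxw27 had 978 and 3, and Fbxw16 had 732 and 2 UMIs. The WT to KO ratio was 218 (84.7 to 800) for Oas1e, 385 (131 to 1868) for Fbxw18 and 246 (83.8 to 1193) for Fbxw27. For Fbxw16 the KO count was raised to 3, which gave 184, with a counting interval of 76.1 to 2281 from the 2 UMIs observed. With so few KO counts these 4 ratios could not be ordered.

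The share of cells with a transcript was compared after each cell was thinned at random to 20000 UMIs, since deeper cells show more genes. At least 1 member UMI was present in 78.8% of WT cells (73.3 to 83.6) and 30.8% of KO cells (24.9 to 37.1). Without thinning, the shares were 89.6% and 45.7%. Zp3 was found in 47.5% of WT cells (41.3 to 53.8) and 8.12% of KO cells (4.96 to 12.4). Dppa3 was found in 43.2% and 12.8% of cells, and H1foo in 39.4% and 9.40%. Gdf9 was found in 34.4% of WT and 5.56% of KO cells, and Khdc3 in 29.3% and 3.42%. The Oas1e and Fbxw transcripts were present in 12.4% to 19.3% of WT cells and in 0.427% to 0.855% of KO cells.

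**Figure D1:**
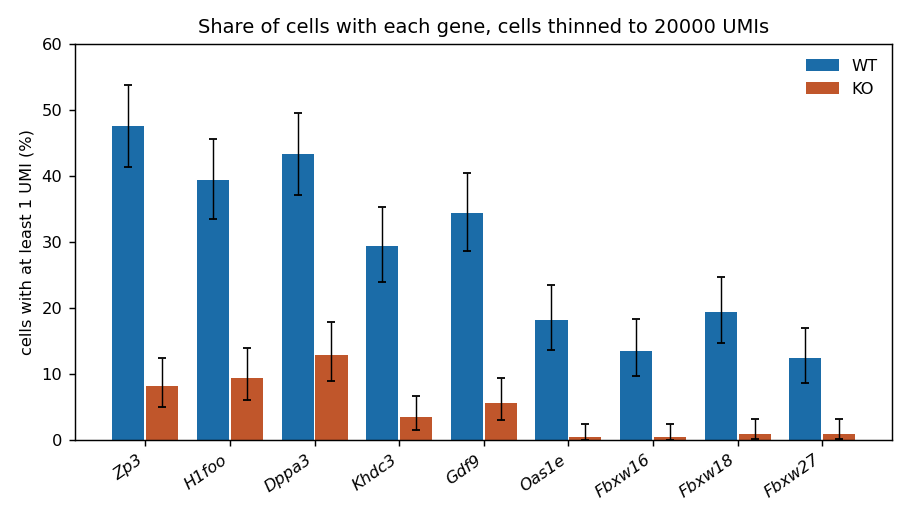
Share of kept cells with at least 1 UMI of each gene (y axis, percent) after thinning to 20000 UMIs, for 259 WT cells (blue) and 234 KO cells (orange), with exact 95% binomial intervals as bars. WT exceeds KO for every gene, from 47.5% against 8.12% for Zp3 to 12.4% against 0.855% for Fbxw27.

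Most cells that held a member held little of it. In WT cells with Zp3 the median was 4 UMIs, and 48 of these 176 cells had a single UMI. The median was 3 UMIs for H1foo, Dppa3 and Gdf9, 2 for Khdc3 and Fbxw16, and 1 for Oas1e, Fbxw18 and Fbxw27. In KO cells the median was 1 UMI for every member but Fbxw27, which was found in 2 KO cells with 1.5 UMIs on average. At the other end, WT cell number 269 held 2134 UMIs of Zp3, 1550 of H1foo and 391 of Oas1e. The highest KO values were 71 UMIs of H1foo and 33 of Dppa3 in cell number 197, and 50 of Zp3 in cell number 208. The 10 richest WT cells held 69.1% of all member UMIs of the WT pool, and the 10 richest cells of each gene held between 67.9% (Dppa3) and 85.0% (Oas1e) of its UMIs.

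The summed level per cell formed a continuous range in WT. No member UMI was found in 27 WT cells (10.4%), 91 cells had up to 100 CPM, 62 had 100 to 300 CPM and 33 had 300 to 1000 CPM. Above 1000 CPM there were 46 WT cells, or 17.8% (13.3 to 23.0), of which 22 reached up to 3000 CPM, 16 up to 10000 CPM and 8 more than that. In KO 127 cells (54.3%) held none, 90 had up to 100 CPM, 9 had 100 to 300 CPM and 8 had 300 to 1000 CPM. No KO cell passed 1000 CPM, where a count of 0 allows a share of up to 1.28% by the limit of 3 counts and 1.56% by the exact bound. The limit of 1000 CPM falls in no gap, since 7 WT cells lay between 800 and 1000 CPM and 6 between 1000 and 1250 CPM. The nearest values on either side were 993 and 1007 CPM, and the highest KO cell was at 848 CPM.

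The 46 WT cells over 1000 CPM held 34489 of the 36973 member UMIs in WT, or 93.3%. This share was 95.9% for Fbxw27, 95.3% for Fbxw18 and 87.6% for Gdf9, with the other members in between. Without these cells the log2 ratio of KO over WT for the summed members was -2.14 (-2.277 to -2.002), and it was -1.38 (-1.63 to -1.14) for H1foo, -1.72 for Dppa3, -2.02 for Zp3, -3.35 for Khdc3 and -3.59 for Gdf9. Every member thus remained lower in the KO pool when the richest WT cells were left out. These cells were not deeper than the rest, with medians of 58541 UMIs and 3871 genes against 60030 UMIs and 3801 genes in the other WT cells. Their member transcripts made up 0.101% to 3.81% of all UMIs in the cell, with a median of 0.308%.

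**Figure D2:**
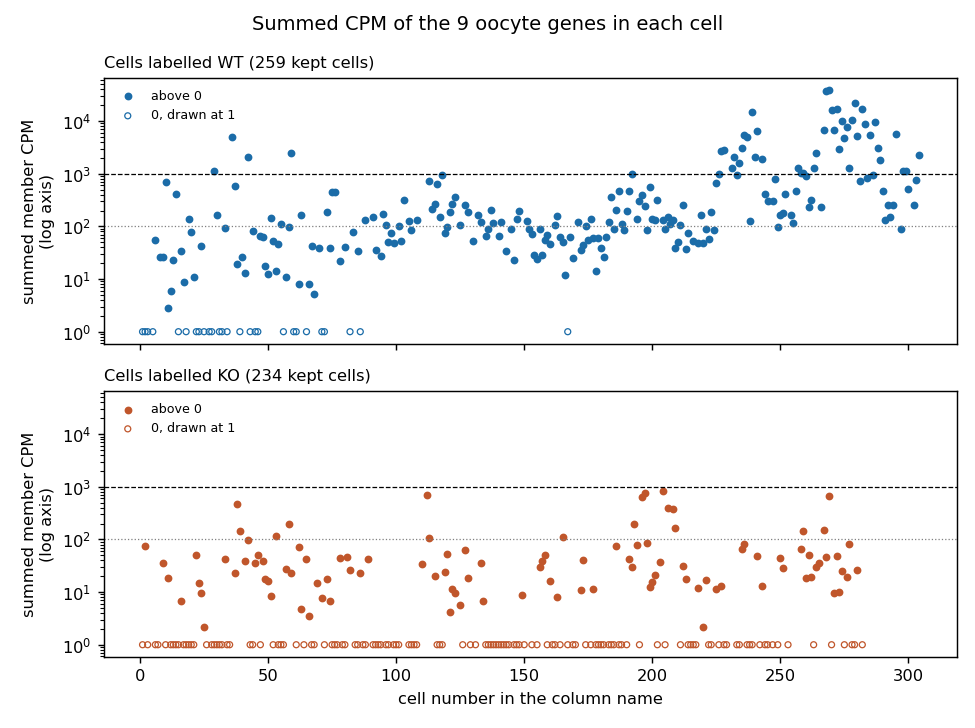
Summed CPM of the 9 genes in each kept cell (y axis, log scale, cells at 0 drawn at 1) against the cell number in the table (x axis), for WT (top) and KO (bottom), with lines at 100 and 1000 CPM. The WT cells over 1000 CPM gather at numbers 227 to 304, while KO cells stay at or under 848 CPM along the whole range.

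The cells rich in members were gathered at the end of the WT numbering. Of the 46, 41 had numbers from 227 to 304, where 70 cells were kept, so that 58.6% of that stretch and 2.65% of the 189 cells before it passed 1000 CPM. The start of that stretch was set by its own cells and is a description. In blocks of 50 numbers, 3 of 46 cells passed in the range 1 to 50, 1 of 39 in 51 to 100, 0 of 34 in 101 to 150, 1 of 47 in 151 to 200, 12 of 43 in 201 to 250 and 28 of 47 in 251 to 300. The longest unbroken run of kept cells over the limit was 14 cells, numbers 267 to 280. The 5 earlier cells were numbers 29, 36, 42, 59 and 192.

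The low levels also followed the numbering. Among WT cells 1 to 50, 18 of 46 had no member UMI, and 8 of 39 had none among cells 51 to 100. From number 101 on, 1 of 174 WT cells had none. The median was 12.7 CPM in cells 1 to 50 and 40.0 CPM in cells 51 to 100, and 128 CPM in cells 101 to 150, 86.9 CPM in 151 to 200, 185 CPM in 201 to 250 and 1260 CPM in 251 to 300. The lowest cell of the stretch from 227 on had 88.0 CPM. Depth moved too, with a median of 85327 UMIs in cells 251 to 300 and 47945 to 66542 UMIs in the earlier blocks, and its part in these levels was not tested. In KO the median was 0 in each block up to number 250 and 25.4 CPM in the last. KO cells 151 to 250 nevertheless held 323 of the 525 KO member UMIs.

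Single members were spread unevenly over these blocks. H1foo had 305 UMIs in WT cells 1 to 50 and 6 in cells 51 to 100, whereas Dppa3 had 71 and 117. In WT cells 1 to 50, 183 of the H1foo UMIs came from cell number 42 and 118 of the 128 Zp3 UMIs from cell number 36. Fbxw16 and Fbxw27 had no UMI in WT cells 1 to 100, and had 641 and 746 in cells 251 to 300. If the numbering follows the libraries, the library and the cells rich in members cannot be told apart, because the table does not say which library a number belongs to. The log2 ratio of KO over WT over WT cells with numbers up to 200 was -1.93.

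The make-up of the member transcripts differed between the bands of summed CPM. In WT cells over 1000 CPM, H1foo gave 25.8% of the member UMIs, Zp3 23.1%, Dppa3 19.3%, Khdc3 10.8%, Gdf9 9.02% and the Oas1e and Fbxw genes 1.92% to 4.23% each. In WT cells with up to 100 CPM, Zp3 gave 29.1%, Dppa3 24.4%, H1foo 14.4%, Gdf9 13.9% and Khdc3 11.2% of 409 UMIs. At 100 to 300 CPM Zp3 also led, with 28.7% (25.6 to 32.0) against 11.9% (9.73 to 14.4) H1foo among 780 UMIs. At 300 to 1000 CPM H1foo gave 28.0% (25.6 to 30.6), Dppa3 22.3%, Gdf9 22.0% (19.8 to 24.4), Zp3 12.5% (10.8 to 14.4) and Khdc3 5.25% of 1295 UMIs. Dppa3 ranged from 19.3% (18.9 to 19.7) over 1000 CPM to 24.4% (20.4 to 28.9) up to 100 CPM. Over these 4 bands Dppa3, H1foo, Zp3, Gdf9 and Khdc3 each differed by more than their counting intervals. Those intervals leave out the spread between cells, so the differences between bands may rest on few cells and are descriptions. The KO UMIs held 35.05% H1foo, 30.5% Dppa3 and 22.1% Zp3, and 6.48% Gdf9 and 3.62% Khdc3. Of the 184 KO UMIs of H1foo, 119 came from cells number 197 and 204, so these KO shares rest on few cells. UMIs count molecules at the 3' end, and their shares were not scaled by transcript length.

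From cell to cell the make-up varied widely. Among the 32 WT cells over 1000 CPM with at least 100 member UMIs, H1foo led in 15, Zp3 in 9, Dppa3 in 7 and Fbxw18 in 1. The share of Zp3 ran from 0.476% to 89.4% with a median of 18.8%, and that of H1foo from 0.758% to 98.9% with a median of 23.9%. Cell number 42 held 183 UMIs of H1foo, 1 of Zp3, 1 of Khdc3 and no other member. Cell number 59 held 82 UMIs of Dppa3 alone, and cell number 29 held 23 UMIs of H1foo alone. By contrast, all 9 members were present in cells 268, 269, 270, 272, 278, 279 and 282, which are 7 of the 8 cells over 10000 CPM. The other one, cell number 239, lacked only Fbxw18.

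**Figure D3:**
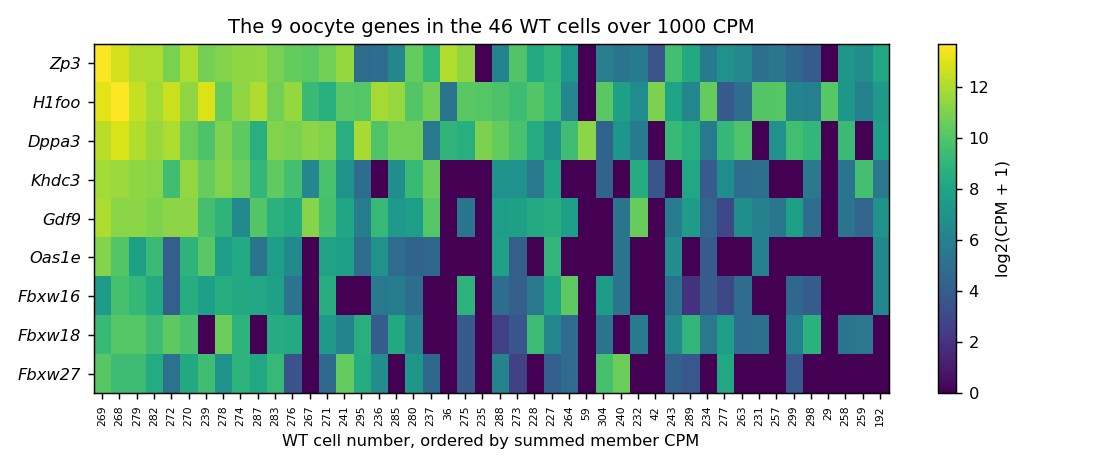
Level of each of the 9 genes (rows) as log2(CPM + 1) in each of the 46 WT cells over 1000 CPM (columns, named by cell number and ordered by summed CPM, highest at the left). The richest cells show all members, and cells 42, 59 and 29 show almost a single member each.

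Members were found in the same WT cells after thinning to 20000 UMIs. Of the 123 cells with Zp3, 58.5% (49.3 to 67.3) also had H1foo, against 22.1% (15.4 to 29.97) of the 136 cells without Zp3. Dppa3 was found in 61.8% of cells with Zp3 and 26.5% of cells without it, and Gdf9 in 52.0% and 18.4%. Fbxw27 was found in 22.8% and 2.94%. In the WT cells up to 1000 CPM the contrast was smaller, with H1foo in 41.9% (31.3 to 53.0) of the 86 cells with Zp3 and 17.3% (11.2 to 25.04) of the 127 without it. Detection was also more frequent at the end of the numbering, and the part of position in this pattern was not tested.

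Of the WT cells, 52 held 5 or more members after thinning and 9 held all of them, while 55 held none. In KO 162 cells held none, 54 held a single member, 12 held 2, 5 held 3 and 1 held 5. Co-detection in KO rested on few cells, since H1foo was found in 3 of the 19 KO cells with Zp3 (15.8%, 3.38 to 39.6) and in 19 of the 215 without it (8.84%). Spearman's rho of CPM between members over the 259 WT cells ranged from 0.39 (Khdc3 and Fbxw18) to 0.62 (Zp3 and H1foo), with a median of 0.51 over 36 pairs. Over the 213 WT cells up to 1000 CPM the median was 0.34. Over the 234 KO cells the median was -0.01 and the highest value 0.27, for H1foo and Dppa3. Without thinning, Oas1e was found in 4 KO cells, Fbxw18 in 3, and Fbxw16 and Fbxw27 in 2 each. With so few cells their pairs could hardly depart from 0, so nothing is read from the KO median. Cells of a label share their pool, and these values are descriptions.

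Each member was also read in cells chosen without it. Zp3 stood at 1975 CPM in the 42 WT cells with over 1000 CPM of the other 8 members and at 36.5 CPM in the other WT cells, a 54.1-fold difference. The fold was 41.1 for H1foo, 34.8 for Dppa3, 65.1 for Khdc3, 28.0 for Gdf9, 67.5 for Oas1e and 39.3 to 61.2 for the Fbxw genes. Zp3 was present in 92.9% of the cells so chosen and H1foo in 97.4%, while Oas1e was present in 57.8%. The members were chosen together because they had been seen in these same cells, so these folds are descriptions and not support.

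Other genes of the oocyte were present in the same cells. From a list of 68 such genes, 50 were in the table, and 49 of them were at least 4-fold higher in the WT cells over 1000 CPM of the members than in the other WT cells, as were 4.67% of all 10720 genes. The median log2 ratio of the 50 was 4.87, beside -0.14 over all genes. The table keeps only genes with a mean above 0.2 UMI, and a gene with no other source could enter it only through cells that hold it, so this count is not support. Summed over the list, the level was 9830 CPM in cells over 1000 CPM, 454 CPM in the other WT cells and 159 CPM in KO. It was higher in each higher band of the members, with 164 CPM in the 27 WT cells without any, 233 CPM up to 100, 501 CPM at 100 to 300, 1456 CPM at 300 to 1000 and 22446 CPM above 10000 CPM of the members. With the 9 members it took 0.194% to 8.02% of the UMIs of a cell over 1000 CPM.

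**Figure D4:**
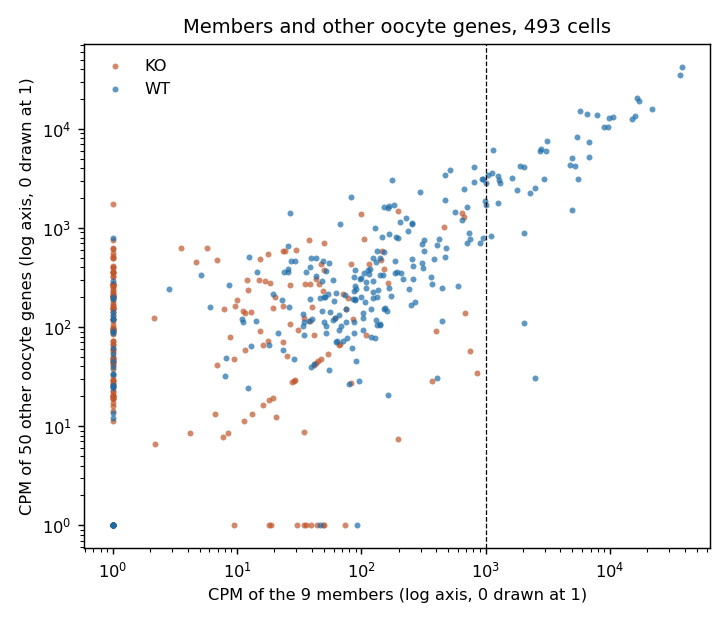
CPM of 50 other oocyte genes (y axis) against CPM of the 9 members (x axis) in each of 493 kept cells, WT in blue and KO in orange, both axes on a log scale with 0 drawn at 1 and a line at 1000 CPM. The values rise together in WT up to 42141 CPM, and among the WT cells over 1000 CPM of the members, numbers 42 and 59 lie lowest, at 110 and 30.2 CPM of the other oocyte genes.

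In the group that shares the subcortical maternal complex with Khdc3, Ooep stood at 608 CPM in the WT cells over 1000 CPM, 20.4 CPM in the other WT cells and 1.05 CPM in KO. Nlrp5 stood at 292, 18.3 and 1.30 CPM. Tle6, a transcriptional co-repressor family gene of the same complex, stood at 366, 84.9 and 80.3 CPM and was found in 53.8% of KO cells. Its level in WT cells without any member was 133 CPM, and 53.5 CPM in KO cells without any, so Tle6 was present in cells of both labels with no member UMI.

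Of the partners of Zp3 in the egg coat, Zp1 stood at 237 CPM in cells over 1000 CPM, 3.22 CPM in the other WT cells and 0.433 CPM in KO, and Zp2 at 138, 9.14 and 0.433 CPM. The transcription factor genes Figla and Nobox stood at 49.2 and 65.9 CPM in cells over 1000 CPM and at 0.977 and 2.82 CPM in the other WT cells, with 1 and 3 UMIs in KO. Bmp15, a growth factor of the oocyte related to Gdf9, had 134 UMIs in cells over 1000 CPM, 101 in the other WT cells and none in KO. Fbxw24 and Fbxw14, relatives of the 3 Fbxw members, stood at 796 and 476 CPM against 41.2 and 16.4 CPM. Fbxw17 was the exception, at 30.9 CPM against 15.0 CPM, and at 23.1 CPM in KO.

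In the comparison of labels 48 of the 50 other oocyte genes were at least 4-fold lower in KO, beside the 3.40% of all genes, with a median log2 ratio of -5.83. The exceptions were Tle6 at -0.79 and Fbxw17 at 0.36. A gene held almost only by WT cells could enter the table only through them, so this count is not support either. Oas1c, next to Oas1e in the genome, had 1522 UMIs in WT and 168 in KO, so it was less unequal than Oas1e.

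Genes of early germ cells and pluripotent cells divided. Dppa5a stood at 1138 CPM in the WT cells over 1000 CPM, 35.6 CPM in the other WT cells and 4.70 CPM in KO. Sall4, a zinc finger gene of the oocyte and of pluripotent cells, stood at 48.3, 0.460 and 0.124 CPM. Nanog, which lies next to Dppa3 on chromosome 6, differed less, at 34.0, 11.4 and 11.6 CPM. Dazl and Smc1b were higher in the cells over 1000 CPM, at 91.6 and 84.2 CPM against 3.56 and 1.61 CPM, but Nanos3 was lower, at 0.245 against 9.37 CPM. Ddx4, a germ cell helicase gene, followed another pattern, at 15.4 CPM in the WT cells over 1000 CPM, 2.24 CPM in the other WT cells and 62.2 CPM in KO. Within KO it stood at 40.0 CPM in cells with no member, 87.6 CPM in cells with up to 100 CPM and 47.4 CPM in cells with 100 to 1000 CPM of them. None of the 13 genes of the 2-cell embryo list was in the table.

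Genes of blood stem cells were present in the cells rich in oocyte transcripts. All 19 of the list were in the table, none was 4-fold higher or lower in the cells over 1000 CPM, beside 4.67% and 6.59% of all genes, and their median log2 ratio was -0.26. Ptprc, which encodes CD45, stood at 145 CPM in these cells and 147 CPM in the other WT cells. Kit stood at 145 and 159 CPM, and Slamf1, which encodes CD150, at 34.5 and 40.0 CPM. Esam, an adhesion gene of HSCs, stood at 69.6 and 113 CPM. Between 8 and 19 of the list, with a median of 15, were detected in each of the 46 cells. Summed over the list, the level was 3444 CPM in these cells and 4075 CPM in the others, and it was 2595 CPM in the 8 cells over 10000 CPM of the members. Cell number 269 held 40 UMIs of Kit and 26 of Slamf1 beside its 6600 member UMIs, whereas cell number 268 held 3 and 0.

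The 4 Y-linked genes of the list were also present. Summed, they stood at 97.5 CPM in the cells over 1000 CPM and 114 CPM in the other WT cells. A Y-linked UMI was found in 69.6% (54.2 to 82.3) and 64.8% (58.0 to 71.2) of these cells after thinning, and in 39 of the 46 without thinning. Eif2s3y was detected in 65.2% and 63.8% of cells, and Ddx3y in 39.1% and 39.4%. In CPM, Ddx3y stood at 36.2 in the cells over 1000 CPM and 31.9 in the other WT cells, and Eif2s3y at 44.3 and 60.3. Kdm5d stood at 12.2 and 14.7 CPM, and Uty at 4.65 and 7.59 CPM. The source of the oocyte transcripts in these cells was not tested. Xist was not analysed here.

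Few markers of the cells that surround oocytes could be read, since the table keeps only genes with a mean above 0.2 UMI. Nothing is read from the absence of the others. Of 18 granulosa and cumulus genes 3 were in the table, none of which was 4-fold higher. Inhba stood at 4.65 CPM in the cells over 1000 CPM and 8.34 CPM in the others, Gja1 at 0.490 and 4.89 CPM, and Kctd14 at 27.7 and 28.9 CPM. Of 12 spermatid genes only Odf2 was in the table, at 33.3 and 19.8 CPM.

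**Figure D5:**
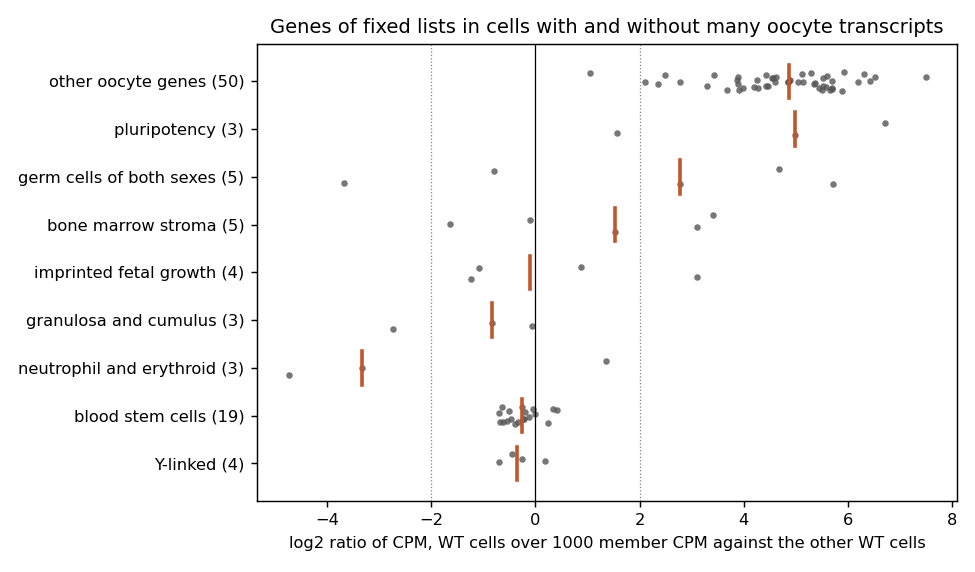
log2 ratio of CPM between the 46 WT cells over 1000 CPM of the members and the other 213 WT cells (x axis) for each gene of 9 lists (points, number of genes in parentheses), with the median of each list as a bar and dotted lines at a 4-fold difference. The 50 other oocyte genes have a median of 4.87, whereas the 19 blood stem cell genes and 4 Y-linked genes have medians of -0.26 and -0.35.

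Some genes of bone marrow stroma were also higher at the end of the WT numbering. Col1a1 stood at 35.7 CPM (30.1 to 42.2) in the WT cells from number 227 on that passed 1000 CPM, 46.6 CPM (39.1 to 55.1) in those from 227 on that did not, and 4.77 CPM (3.71 to 6.04) in earlier cells up to 1000 CPM. KO cells held 4 UMIs of it in all. Sparc stood at 34.2, 17.4 and 1.04 CPM in these 3 sets, and Lepr at 42.4, 10.2 and 2.70 CPM. Within the stretch from 227 on, Sparc and Lepr were thus higher in CPM in the cells over 1000 CPM, and Col1a1 was not. Sparc was found in 11 of the 41 cells over 1000 CPM there and in 10 of the 29 others, so its level rests on few cells. Lepr was found in 29 and 14 of these cells, and Col1a1 in 23 and 20. Col1a2 and Pdgfrb, the rest of the stroma genes in the table, were not higher in the WT cells over 1000 CPM. They stood at 2.20 and 11.3 CPM there and at 6.84 and 12.1 CPM in all other WT cells. Over the 5 stroma genes in the table the level was 127, 118 and 22.4 CPM in the 3 sets. The 50 other oocyte genes stood at 10287, 1249.5 and 292 CPM in the same sets. The part of the library in either pattern was not tested.

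Of 12 imprinted fetal growth genes 4 were in the table, and of these H19 and Igf2r were higher in the cells over 1000 CPM. H19 stood at 38.0 CPM in the cells over 1000 CPM, 4.43 CPM in the other WT cells and 0.0618 CPM in KO. In the WT cells from number 227 on it stood at 39.9 CPM in those over 1000 CPM, 7 of 41 of which held it, and at 23.1 CPM in the others, 11 of 29 of which held it. In earlier WT cells up to 1000 CPM it stood at 0.623 CPM. Igf2r stood at 8.57 CPM in the cells over 1000 CPM against 4.66 CPM in the other WT cells. Cdkn1c and Grb10 were lower, at 17.1 and 13.5 CPM against 40.2 and 28.5 CPM. Of 15 neutrophil and erythroid genes 3 were in the table. S100a8 stood at 34.8 against 13.5 CPM, S100a9 at 0 against 7.42 CPM, and Epor at 0.980 against 26.2 CPM.

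The genes whose pattern over the 493 cells was most like that of the summed members were named by Pearson's r of log2(CPM + 1). They were Dppa5a at 0.67, Gm15698 at 0.66, Intu at 0.65, Fbxw24, Nlrp5, Nlrp14 and Npm2 at 0.62, and Ooep, 9530091C08Rik and Omt2b at 0.61. The median over 9325 genes was -0.002, and r of the total UMIs per cell was 0.07. Intu, which encodes a protein of planar cell polarity and cilia, stood at 924 CPM in the cells over 1000 CPM and 27.8 CPM in the others. Gm15698 stood at 1277 and 28.3 CPM.

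Of the genes outside the members that averaged 0.5 UMI per cell or more, the largest ratios in the cells over 1000 CPM belonged to Ppp2r2b, Cpa1, Mos, Pabpn1l, Ninj2, Olfm1, Cd164l2, Gm1965, Cpsf4l and 1700018B24Rik, with log2 ratios of 6.53 to 8.35. Mos, a kinase that holds the mature egg in metaphase, stood at 135 against 0.747 CPM and was detected in 20 of the 46 cells. Ppp2r2b, the first of them, was detected in 9 cells. The largest ratios in the other direction were those of Smtnl1, Btbd7, Hexim1, Epor, Shisa8, Vaultrc5, Ehd3, Adcy9, Vkorc1l1 and Med14, at -5.04 to -4.44. They were detected in 1 to 6 of the 46 cells over 1000 CPM and in 10.3% to 36.6% of the other WT cells. Med14, a Mediator subunit, had 3 UMIs in the cells over 1000 CPM and 278 in the others.

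In KO cells the members were read where they were most abundant. The 17 cells with 100 to 1000 CPM held 375 of the 525 UMIs. Cell number 204 had 48 UMIs of H1foo and 1 of Khdc3, cell number 197 had 71 of H1foo and 33 of Dppa3, and cell number 112 had 10 of Gdf9 with 1 of Zp3, 1 of H1foo and 3 of Dppa3. Cell number 58 held 27 UMIs of Dppa3 alone and cell number 209 held 13 of Zp3 alone. The 50 other oocyte genes stood at 314 CPM in these 17 cells and 124 CPM in the 127 KO cells without a member. The most of them in any KO cell over 100 CPM was 60 UMIs, in cell number 193.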

How the data were processed

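Single HSCs, 304 labelled WT and 282 labelled KO, were analysed from 1 table of 10720 genes. Per the study's methods, reads were separated by barcode, aligned to the mm9 transcriptome and collapsed by UMI. Cells under 30% mapping, 2000 genes or 20000 transcripts and genes with an average count of 0.2 or less were removed. The aligner and the normalization are not given in the sources used here. The authors deposited normalized counts on a log2 scale after adding 1.

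Within each cell these values, with the log2 undone, were divided by their smallest step above 0, which gave whole UMIs for 100% of values (tolerance 0.01, largest distance 0.00302). CPM is UMIs per 1000000 UMIs of the genes in the table. Kept cells had 2000 genes and 20000 UMIs in the table, which left out 93. They held 20027 to 496293 UMIs each, and 21475782 (WT) and 16180546 (KO) in all. Pooled counts under 3 were raised to 3 for ratios. Intervals are exact Poisson or Clopper-Pearson intervals at 95% and cover counting error only. With 1 pool per label no test was run. No clustering or doublet calling was done. Cells were picked by hand, and whether any cell number holds material of several cells was not tested.

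The 9 members, the 12 gene lists and the limits were chosen with earlier results of these data known. Named genes were the members, Med23, genes of the lists, the 10 with the highest correlation with the summed members, and the 10 with the largest ratio each way between WT cells over 1000 CPM and the other WT cells, with a mean of at least 0.5 UMI. Cells, blocks and relatives singled out by number or name were picked with their values in view. Alternatives were every cell, a minimum of 3000 genes and 30000 UMIs, thinning, other scaling, other limits and other blocks. Calculations used Python 3.11.15, numpy 2.4.6, pandas 2.3.3, scipy 1.17.1, Biopython 1.88 and matplotlib 3.10.9, and were tested on simulated data.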

Additional observations from a re-analysis of the deposited data

How the results depend on the processing

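The log2 ratio of summed member CPM, -5.73, was -6.06 in cells of at least 3000 genes and 30000 UMIs, -5.12 after thinning to 20000 UMIs, -5.95 with the deposited normalized values and -2.14 without cells over 1000 CPM of the members. It was -1.93 without WT cell numbers above 200, an alternative added after the data were seen. With every cell, median-of-ratios scaling, without the richest cell of each label and without Zp3 it stayed between -5.76 and -5.63. The share of WT cells over the limit, 17.8%, was 30.5% at 300 CPM and 9.27% at 3000 CPM, and the KO share was 3.42% at 300 CPM. The WT member UMIs in cells over the limit, 93.3%, came to 93.0% without a cell minimum, 94.0% under the stricter one, 90.001% after thinning, 96.8% at 300 CPM and 85.3% at 3000 CPM. WT cells holding all 9 members numbered 9 after thinning and 21 without it. The block of 50 cell numbers with most cells over the limit held 60.9% of them. It held 30.4% in blocks of 25, 78.3% in blocks of 96 and 75.0% at 3000 CPM.

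No paired analysis was possible because no column carries a library or replicate number, and leaving out each library in turn was not run for the same reason. The lack of replicates, the unknown library of each cell and counts under 5 UMIs for Oas1e and the Fbxw genes in KO limit these values.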
